A study of Rattus norvegicus with 12 samples.

Results

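Fc receptors for IgG, the C1q subunits of complement and other genes of the macrophage were followed in rat terminal end buds, the swollen ends by which ducts of the young gland push into the fat pad. The set holds 10 genes: Fcgr3a, Fcgr2b, C1qa, C1qb, C1qc, Cybb, Cd68, Csf1r, Lyz2 and Colec12. They were chosen by name, and each was read from its brightest probe among those the authors called detected on both arrays of at least 1 group. By that rule 7 of the 10 were measured, out of 11963 genes and unnamed probes detected in the series. The only Csf1r probe, for the receptor of the macrophage growth factor CSF1, was called absent on every array, and no probe used here could be named for C1qa or for Cd68, a lysosomal glycoprotein of macrophages.

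Macrophages surround the growing end bud and are known to be needed for its outgrowth in the mouse, where CSF1 recruits them. Fc receptors let them bind antibody-coated particles: Fcgr3a is an activating receptor that signals through the Fcer1g chain, and Fcgr2b is the inhibitory receptor of the family. C1q, made largely by macrophages and built of the C1qa, C1qb and C1qc chains, starts the classical complement pathway and marks dying cells for uptake.

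Inbred Sprague-Dawley females were given 1 subcutaneous injection within a day of birth. The groups were the sesame oil vehicle alone and diethylstilbestrol (DES, a synthetic estrogen) in that oil at 1 µg or 100 µg, each examined at 49 and at 35 days of age. End buds were cut out by laser microdissection from abdominal glands, and amplified RNA of each animal was hybridised to its own 1-colour array, giving 2 arrays in each of 6 groups. A microdissected end bud holds epithelium, stroma and resident cells together, so fewer macrophages and less RNA per macrophage cannot be told apart in any result here. All values below are signals as multiples of the array median, and differences are on the log2 scale with their standard error.

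Epithelial markers were present, with Epcam between 567 and 910 times the array median and Krt14, of basal cells, between 72.9 and 109. Krt5, another basal keratin, was low (0.086 to 0.988). Replicate arrays correlated at 0.980 to 0.986 across probes. The 2 oil arrays at 49 days stood apart: 47.2% of probes were detected on both, against 57.5% to 61.7% in the other groups, and their 75th percentile signals were 155 and 142, against 210 to 333. They scored 76.0 and 70.7 on the first principal component (41.3% of the variance), where the other 10 arrays scored between -35.8 and 10.1. Every comparison with oil at 49 days carries this difference, and its part in the results was not tested. Scan days were known for the other 10 arrays only, 2 on each of 5 days.

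Fcgr3a was the gene of the set with the clearest difference at 35 days, and it stood highest in the oil group of that age. Its signal was 5.79 and 5.88 in oil, 2.496 and 2.404 after DES 1 µg and 1.94 and 2.01 after DES 100 µg at 35 days. Neither DES group overlapped with oil. Relative to oil, Fcgr3a differed by -1.56 ± 0.14 with DES 100 µg (adjusted p = 0.0021) and by -1.25 ± 0.14 with DES 1 µg (adjusted p = 0.0017, n = 2 arrays a group). The authors' deposited tables of probes at least 2-fold apart list the same probe at 0.338 and 0.421 of oil. Of the 7 measured genes Fcgr3a alone passed in each comparison, against 0.947% of all genes tested that were called lower after DES 100 µg (1.4% either way) and 4.37% after DES 1 µg (7.74% either way). On the 1 day on which both groups were scanned, DES 1 µg minus oil was -1.21. With scan day as a fixed block, which leaves 1 residual degree of freedom, the differences were -1.41 with DES 100 µg (adjusted p = 0.50) and -1.18 with DES 1 µg (adjusted p = 0.33), so that the calls were lost. With normexp background correction on 10 arrays they were -0.85 (adjusted p = 0.029) and -0.68 (adjusted p = 0.025), and both passed. With only the 4 arrays compared, the DES 100 µg difference no longer passed.

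At 49 days Fcgr3a was 3.41 and 3.04 in oil, 3.03 and 3.96 after DES 1 µg and 2.69 and 2.87 after DES 100 µg. The DES 1 µg arrays spanned the range of oil, and neither difference from oil passed (adjusted p = 0.29 with the higher and 0.58 with the lower dose). The oil level itself was lower at 49 than at 35 days by -0.86 ± 0.14 (adjusted p = 0.0031). With array signal as a covariate this difference was -0.89 and just missed the threshold (adjusted p = 0.057). Fcgr3a therefore stood highest in oil at 35 days, and next came DES 1 µg and oil at 49 days, which overlapped. DES 100 µg at 49 days, DES 1 µg at 35 days and DES 100 µg at 35 days followed in that order without overlap. The interaction of DES with age, its effect at 49 minus that at 35 days, passed for both doses. It was 1.35 ± 0.20 with DES 100 µg (adjusted p = 0.0093) and 1.36 ± 0.20 with DES 1 µg (adjusted p = 0.0066).

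Fcgr2b, the inhibitory receptor, followed another course. It read 3.96 and 3.84 in oil, 4.37 and 4.18 after DES 1 µg and 3.19 and 3.33 after DES 100 µg at 35 days. By 49 days the values were 4.70 and 4.62 in oil, 7.12 and 7.09 after DES 1 µg and 4.44 and 4.94 after DES 100 µg. DES 1 µg at 49 days was the highest group and overlapped with no other.

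Relative to oil of that age, Fcgr2b rose with DES 1 µg at 49 days (0.61 ± 0.10, adjusted p = 0.0043), and DES 100 µg lay below DES 1 µg (-0.60 ± 0.10, adjusted p = 0.012). It was the only gene of the set that passed between the doses at 49 days, where 3.5% of all genes were called lower and 7.3% either way. Between the doses at 35 days none of the 7 passed, against 8.16% of all genes. The nearest was Fcgr2b (-0.39 ± 0.10, adjusted p = 0.053), which passed under some alternatives, among them 3 other scalings of the arrays. It did not pass with normexp background correction (-0.23, adjusted p = 0.22) or with only the arrays compared (adjusted p = 0.28). Nor did it with scan day as a fixed block (adjusted p = 0.31). With age Fcgr2b rose after DES 1 µg (0.73 ± 0.10, adjusted p = 0.0074) and after DES 100 µg (0.52 ± 0.10, adjusted p = 0.022), and in both comparisons it was the only one of the 7 to pass. Of all genes tested, 3.55% were called higher with age after DES 1 µg (4.31% either way) and 4.59% after DES 100 µg (6.17% either way). With normexp background correction on 10 arrays these 3 differences between DES groups were -0.27, 0.31 and 0.26, and none passed.

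The pair of Fc receptors thus changed unequally within arrays. Set to its mean in oil at 35 days, the log2 ratio of Fcgr3a to Fcgr2b at that age was -0.03 and 0.03 in oil, -1.39 and -1.38 after DES 1 µg and -1.30 and -1.32 after DES 100 µg. At 49 days it was -1.04 and -1.19 in oil, -1.82 and -1.42 after DES 1 µg and -1.30 and -1.37 after DES 100 µg. The 2 oil arrays at 35 days were apart from all other 10. Dividing an array by a constant leaves this ratio as it is.

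**Figure D1:**
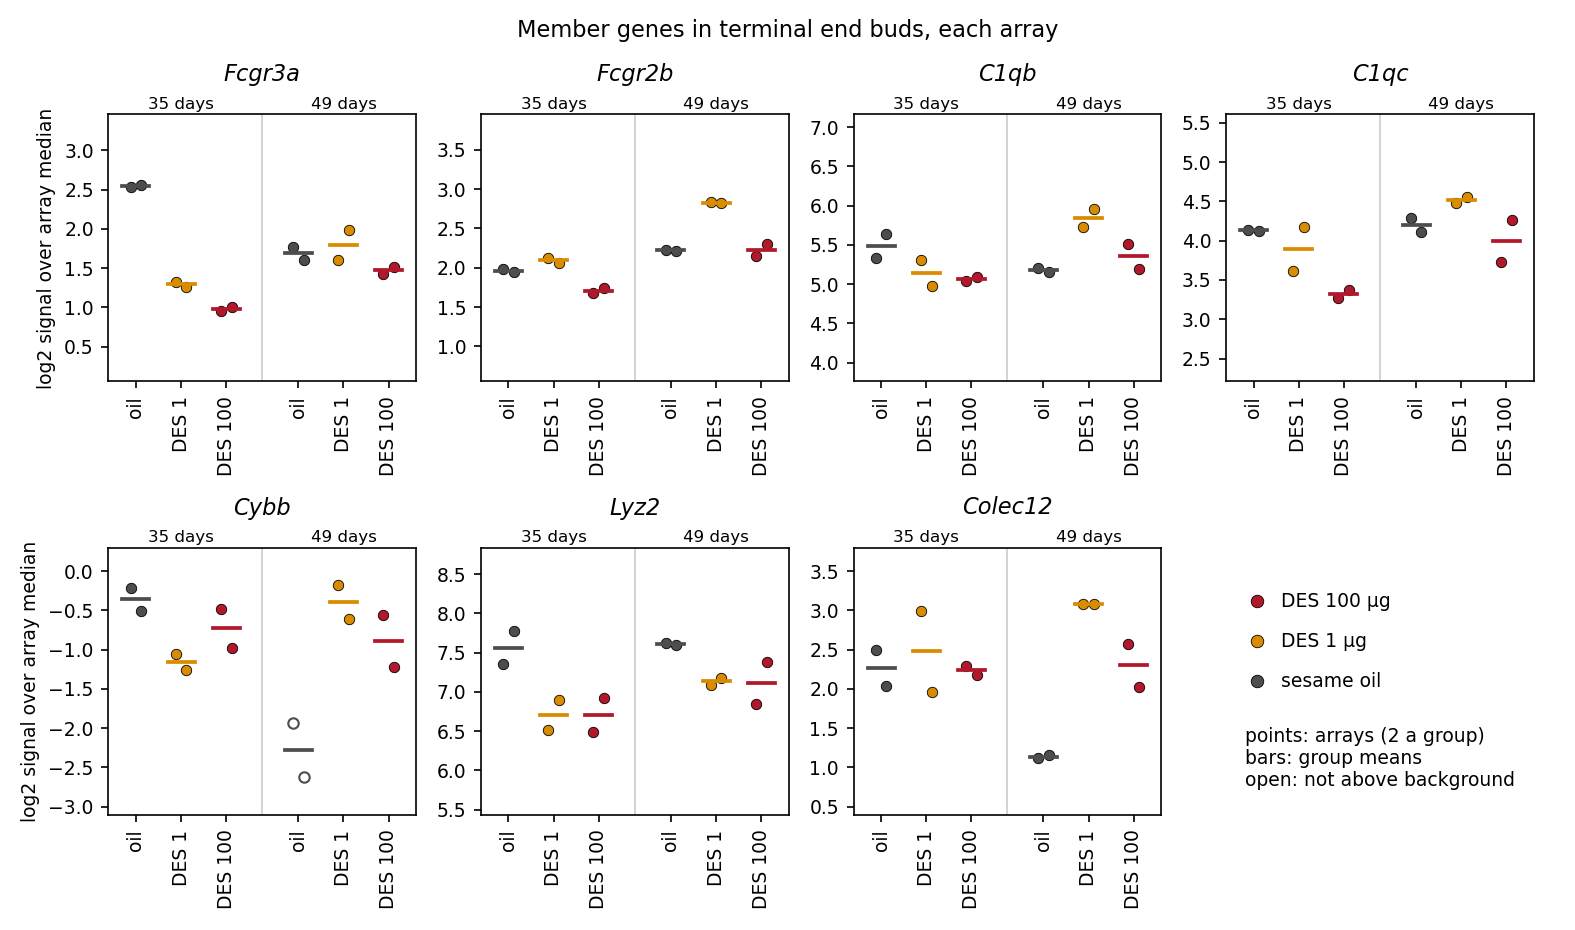
Log2 signal over the array median of the 7 measured genes on each of the 12 arrays, by treatment (oil, DES 1 µg, DES 100 µg) at 35 and 49 days, with points for arrays, bars for group means of 2 arrays, and open points where the probe was not above background. Each panel spans the same range of log2 units; Fcgr3a is highest in oil at 35 days and Fcgr2b in DES 1 µg at 49 days.

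**Figure D2:**
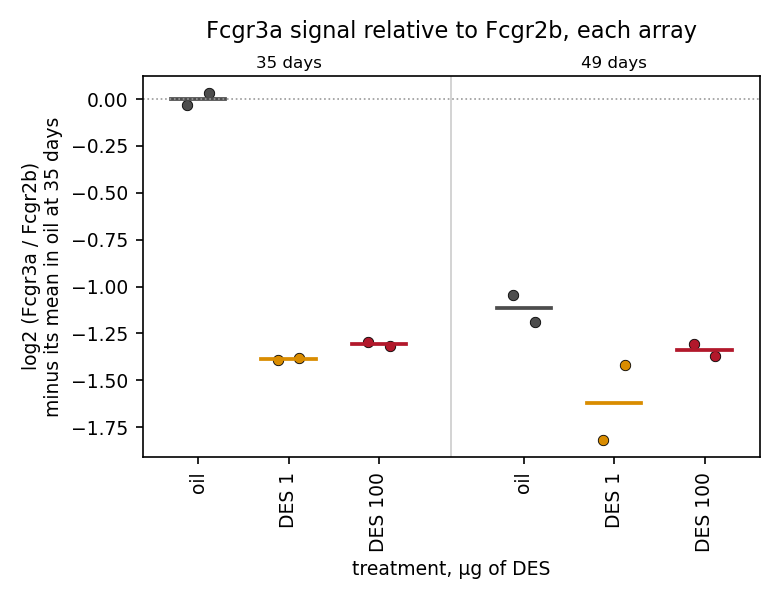
Log2 ratio of the Fcgr3a to the Fcgr2b signal on each array, minus its mean in oil at 35 days, by treatment and age; points are arrays and bars group means of 2 arrays. The oil arrays at 35 days lie at -0.03 and 0.03, and the other 10 between -1.82 and -1.04.

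C1qb was brightest after DES 1 µg at 49 days. It read 40.395 and 50.0001 in oil, 39.5 and 31.3 after DES 1 µg and 32.9 and 34.2 after DES 100 µg at 35 days. At the later age it read 36.8 and 35.8 in oil, 53.0 and 61.9 after DES 1 µg and 45.7 and 36.6 after DES 100 µg. The groups did not overlap between either dose and oil at 35 days, but neither difference passed (adjusted p = 0.40 with the higher and 0.26 with the lower dose).

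At 49 days C1qb rose with DES 1 µg over oil (0.66 ± 0.17, adjusted p = 0.022), a call lost when any 1 of the 4 arrays was left out and with array signal as a covariate. The interaction of DES 1 µg with age was 1.01 ± 0.25 for C1qb (adjusted p = 0.027). With DES 100 µg the C1qb arrays overlapped with oil at 49 days (adjusted p = 0.49).

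C1qc, the chain that pairs with C1qb and C1qa in each C1q subunit, read 17.6 and 17.5 in oil, 12.2 and 18.1 after DES 1 µg and 9.62 and 10.4 after DES 100 µg at 35 days. At 49 days it read 19.6 and 17.3 in oil, 22.4 and 23.4 after DES 1 µg and 13.3 and 19.2 after DES 100 µg. No comparison of C1qc passed in the main fit, where the lowest adjusted p was 0.11, for 49 over 35 days after DES 100 µg. With array signal as a covariate C1qc passed for DES 1 µg over oil at 49 days (0.70, adjusted p = 0.041). The interaction of DES 1 µg with age also passed there (0.97, adjusted p = 0.047). Like C1qb, C1qc was highest in DES 1 µg at 49 days, without overlap with the next group, and its lowest mean was in DES 100 µg at 35 days. The C1qb and C1qc levels correlated at r = 0.53 across the 12 arrays, which share their groups, scaling and hybridisation.

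Cybb, the gp91phox subunit of the phagocyte NADPH oxidase that makes superoxide, was close to the detection limit. It read 0.864 and 0.704 in oil, 0.480 and 0.418 after DES 1 µg and 0.719 and 0.506 after DES 100 µg at 35 days. On the oil arrays at 49 days it was not above background, at 0.262 and 0.162, where the lowest signal called detected was 1.04 and 1.03. At that age it read 0.881 and 0.656 after DES 1 µg and 0.680 and 0.431 after DES 100 µg.

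That limit in oil lies above every Cybb signal of the DES groups, so no size of a difference from oil at 49 days can be given. The fit called Cybb higher there with DES 100 µg (adjusted p = 0.016) and with DES 1 µg (adjusted p = 0.0042), and the authors' deposited tables list it at 2.63 and 3.70 of oil. It also called Cybb lower at 49 than at 35 days in oil (adjusted p = 0.0030). With array signal as a covariate this call and that with DES 100 µg were lost (adjusted p = 0.12 and 0.41). At 35 days, where Cybb was detected in each group, neither dose differed from oil past the threshold (adjusted p = 0.76 with the higher and 0.16 with the lower dose).

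Lyz2, lysozyme M, an antibacterial enzyme and a marker of myeloid cells, was bright on all arrays, but its 2 probes did not run together. The brighter read 164 and 219 in oil, 91.1 and 120 after DES 1 µg and 90.3 and 121 after DES 100 µg at 35 days. By 49 days the values were 198 and 194 in oil, 136 and 145 after DES 1 µg and 115 and 167 after DES 100 µg. Both DES groups lay below oil at both ages, and no comparison passed (adjusted p = 0.18 and 0.065 at 35 days for DES 100 µg and DES 1 µg).

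The dimmer Lyz2 probe read 42.7 and 31.0 in oil, 19.1 and 18.2 after DES 1 µg and 21.6 and 20.9 after DES 100 µg at 35 days. At the later age it read 13.2 and 14.5 in oil, 24.7 and 22.6 after DES 1 µg and 22.9 and 22.8 after DES 100 µg. By this probe, examined after its values were seen, Lyz2 was lower than oil with DES 1 µg at 35 days (-0.97 ± 0.15, adjusted p = 0.0077), as the brighter probe also ran. At 49 days it was higher than oil with DES 100 µg (0.72 ± 0.15, adjusted p = 0.013) and DES 1 µg (0.77 ± 0.15, adjusted p = 0.0079), the opposite side of the brighter probe. The probes part on the 2 oil arrays at 49 days, and no direction is given for Lyz2 at that age.

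**Figure D3:**
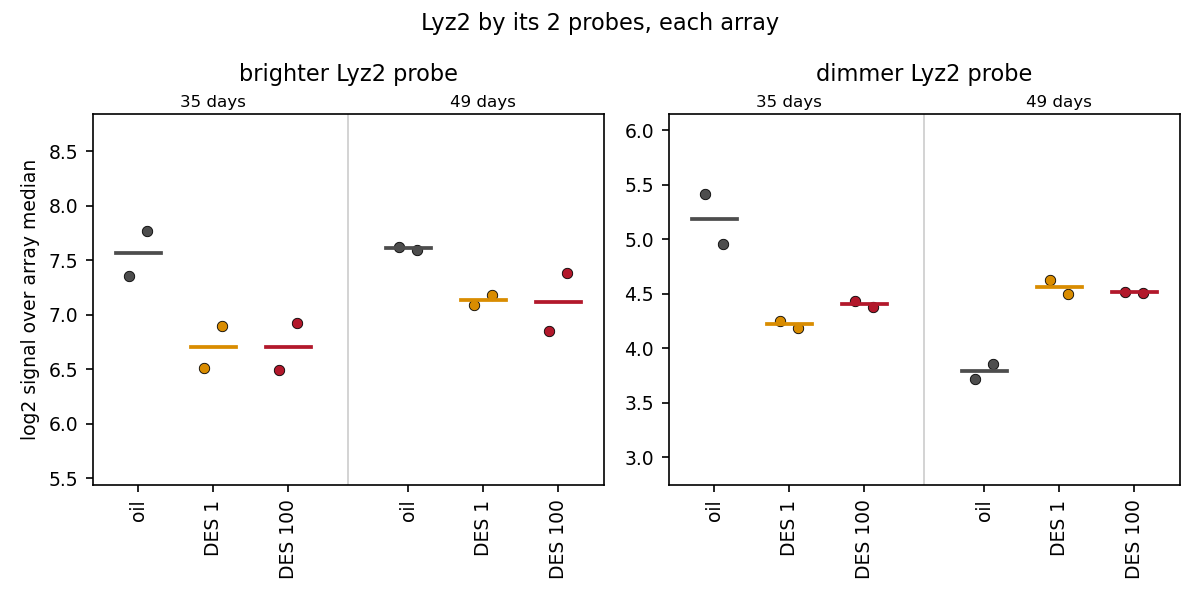
Log2 signal over the array median of the brighter and the dimmer Lyz2 probe on each array, by treatment and age; points are arrays and bars group means of 2 arrays. Oil at 49 days is level with oil at 35 days by the brighter probe and the lowest group by the dimmer one.

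Colec12, a collectin and scavenger receptor that takes up bacteria and modified lipoproteins and is also known from endothelium, was lowest in oil at 49 days, apart from all other groups. It read 5.65 and 4.12 in oil, 7.96 and 3.89 after DES 1 µg and 4.90 and 4.52 after DES 100 µg at 35 days. At 49 days it read 2.16 and 2.24 in oil, 8.43 and 8.42 after DES 1 µg and 5.94 and 4.07 after DES 100 µg. At 35 days all 3 groups overlapped, and at 49 days none did.

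Colec12 rose over oil at 49 days with DES 100 µg (1.16 ± 0.32, adjusted p = 0.033) and with DES 1 µg (1.94 ± 0.32, adjusted p = 0.0043). The DES 100 µg call was lost under 6 of 14 alternatives, and the difference was 0.0023 with array signal as a covariate. The DES 1 µg call held under all 14. Scan day as a block and normexp are not among these, since they lack oil at 49 days. The authors' deposited tables list Colec12 at 2.24 and 3.82 of oil. In oil it fell with age (-1.13 ± 0.32, adjusted p = 0.023), a fall that turned to 0.03 with array signal as a covariate. Markers of other cells also rose with DES 1 µg at 49 days, but they did not follow Colec12 in every comparison. For DES 1 µg over oil at 49 days 9 of 10 fibroblast markers, 6 of 7 adipocyte markers and 4 of 6 endothelial markers rose, while 1 endothelial marker fell. Of all genes 12.9% were called higher in that comparison and 33.2% either way. Summed fibroblast markers were 1716 to 2164 after DES 1 µg and 1073 to 1240 in oil. Summed adipocyte markers were 684 to 712 after DES 1 µg and 383 to 400 in oil, and summed endothelial markers 79.6 to 87.6 after DES 1 µg and 68.3 to 74.1 in oil. Of the list of collectins and scavenger receptors 7 of 20 were measured; 3 rose and 3 fell with DES 1 µg, among them the lectin Clec10a (0.86), the fatty acid receptor Cd36 (1.46) and the lysosomal Scarb2 (-0.78). With DES 1 µg at 35 days 5 of 6 endothelial, 4 of 7 adipocyte and 3 of 10 fibroblast markers rose and 0 fell. Colec12 did not pass there (0.21, adjusted p = 0.74), and 7.74% of all genes passed either way. With DES 100 µg at 49 days 4 of 7 adipocyte, 3 of 10 fibroblast and 1 of 6 endothelial markers rose. There 1 fibroblast and 1 endothelial marker fell, and 25.5% of all genes passed either way. The part of these genes in the Colec12 result was not tested.

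Counted over the 7 measured genes, DES 1 µg over oil at 49 days had 4 higher and 0 lower, but 12.9% of all genes were called higher in that comparison and 33.2% either way. DES 100 µg over oil at 49 days had 2 higher (Cybb and Colec12), against 10.8% of all genes called higher and 25.5% either way. Age in oil had 3 lower (Fcgr3a, Cybb and Colec12), against 14.1% of all genes called lower and 42.5% called either way. The median of all genes was itself shifted by 0.15 in that comparison, and none of the 3 calls held with array signal as a covariate. The interaction with age passed for 5 of the 7 with DES 1 µg, all upward, where 9.53% of all genes were called upward and 21.2% either way. With DES 100 µg it passed for 2, Fcgr3a and Cybb, where 4.63% were and 9.97% either way. Both interactions, and both doses at each age, share the oil arrays. Cybb is among the genes counted in each of these comparisons. In oil at 49 days it was not above background, and it was tested because other groups compared were detected. Its calls rest on signals below the detection limit of those oil arrays, so they give no measured size.

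**Figure D4:**
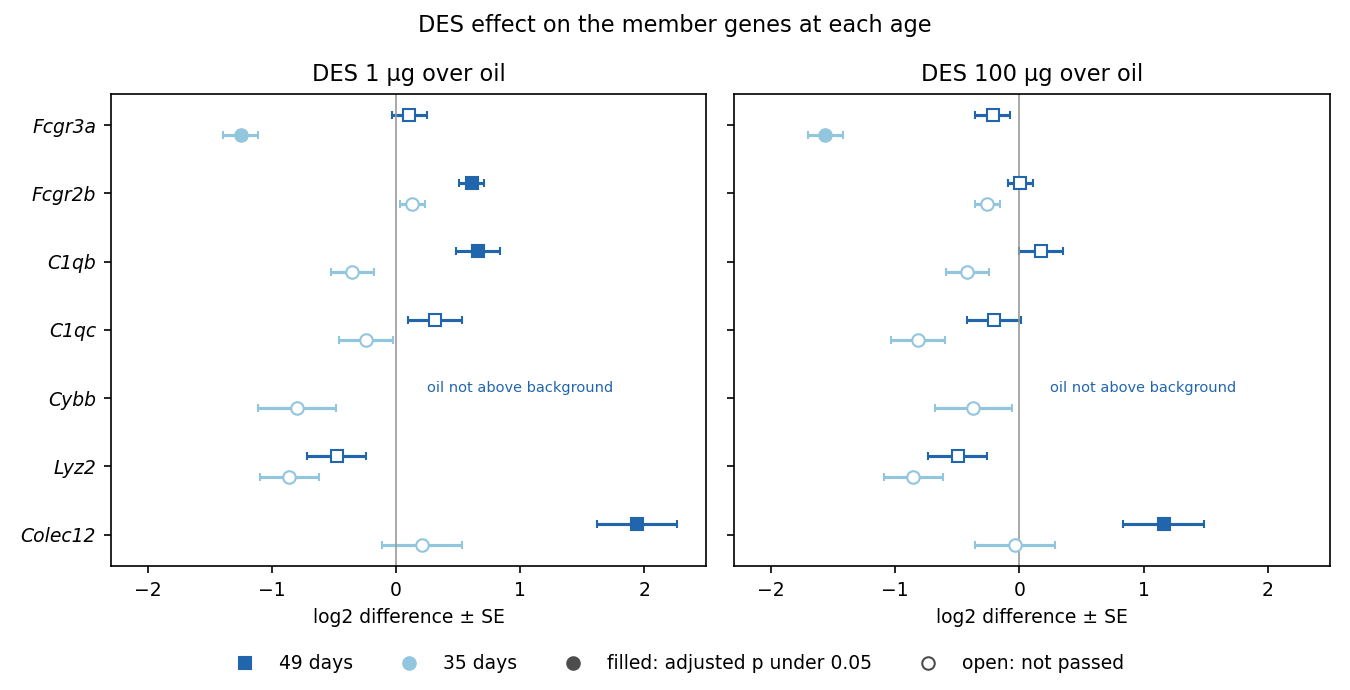
Log2 difference of DES 1 µg (left) and DES 100 µg (right) over oil with its standard error for each measured gene at 49 days (squares) and 35 days (circles), n = 2 arrays a group; filled symbols passed at an adjusted p under 0.05. Cybb has no value at 49 days because oil was not above background; Fcgr3a passed only at 35 days, and Fcgr2b, C1qb and Colec12 only at 49 days.

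Other genes of Fc receptor signalling were read from a list of 18, of which 12 were measured. Fcgr1a, the high-affinity IgG receptor, was lower than oil at 35 days with DES 100 µg (-0.71 ± 0.10, adjusted p = 0.016) and DES 1 µg (-0.44 ± 0.10, adjusted p = 0.042). Its signals were 14.6 and 13.3 in oil, 9.83 and 10.8 after DES 1 µg and 8.64 and 8.33 after DES 100 µg, with no overlap. Plcg2, a phospholipase downstream of these receptors, fell with DES 1 µg as well (-0.55 ± 0.13, adjusted p = 0.044), and the other 10 of the list did not pass. At 49 days 1 of 12 passed with DES 1 µg, Fcgr1a again but upward (0.34 ± 0.10, adjusted p = 0.039), and none with DES 100 µg. Of all genes 33.2% passed either way with DES 1 µg and 25.5% with DES 100 µg at 49 days. The shares at 35 days were 7.74% and 1.4%. Medians of the list at 35 days were -0.15 with DES 100 µg and -0.43 with DES 1 µg, where those of all genes were 0.02 and -0.02.

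Around C1q, the list of the classical complement pathway and its regulators held 17 measured genes of 32, and its members did not move together. With DES 100 µg at 35 days 2 fell: C1s, a protease bound to C1q (-1.09 ± 0.15, adjusted p = 0.012), and Serping1, the inhibitor of C1r and C1s (-0.97 ± 0.11, adjusted p = 0.0062). With DES 1 µg at 35 days 2 rose and 4 fell, among them Clu (-1.79 ± 0.13) and C2, which forms the C3 convertase (-0.94 ± 0.10). At 49 days 7 rose and 1 fell with DES 1 µg over oil, including C1s (1.65 ± 0.15, adjusted p = 0.00055) and C1r (1.24 ± 0.15, adjusted p = 0.0013). With DES 100 µg 5 of 16 rose and 2 fell, and C3, the central component, rose most clearly (1.59 ± 0.15, adjusted p = 0.00089). Of all genes 12.9% were called higher with DES 1 µg at 49 days (33.2% either way) and 10.8% with DES 100 µg (25.5% either way). At 35 days 7.74% passed either way with DES 1 µg and 1.4% with DES 100 µg. C1s read 6.71 and 7.06 in oil, 21.99 and 21.13 after DES 1 µg and 9.60 and 9.41 after DES 100 µg at 49 days. C1s and C1r are made by stromal and epithelial cells as well as by macrophages.

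Of the partners of Cybb in the NADPH oxidase 4 of 9 were measured, and none passed in the 4 comparisons with oil. Cyba, which forms the membrane heterodimer with Cybb, read 17.5 and 21.3 in oil, 16.02 and 21.95 after DES 1 µg and 15.7 and 20.3 after DES 100 µg at 35 days, so that the groups overlapped. Among the CSF1 receptor ligands and macrophage transcription factors 10 of 16 were measured. For DES 1 µg over oil at 49 days 1 of 9 rose, Csf1 itself (0.63 ± 0.15, adjusted p = 0.017), and 1 fell, the transcription factor Tfec (-1.02 ± 0.29, adjusted p = 0.029), with a list median of -0.20. Tfec was also the 1 of 8 that fell with DES 100 µg at 49 days (-1.04 ± 0.29, adjusted p = 0.033), and none rose. Of all genes 33.2% passed either way with DES 1 µg at that age, 25.5% with DES 100 µg and 42.5% with age in oil. With age in oil Csf1 fell (-0.49 ± 0.15, adjusted p = 0.034), while Tfec (1.12 ± 0.29, adjusted p = 0.016) and Nr1h3 (0.66 ± 0.14, adjusted p = 0.0070) rose, and the list median was 0.46. Nr1h3, a sterol-sensing nuclear receptor, rose with DES 1 µg at 35 days (0.64 ± 0.14, adjusted p = 0.028), while nothing in this list passed for DES 100 µg at that age.

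Macrophage markers outside the set were set beside these results, 15 of 25 measured. For DES 100 µg over oil at 35 days 2 of 15 fell, the chemokine Ccl6 (-0.93 ± 0.11, adjusted p = 0.0061) and the lysosomal protein Laptm5 (-0.75 ± 0.13, adjusted p = 0.034), and for DES 1 µg 2 fell, Ccl6 (-0.51 ± 0.11, adjusted p = 0.025) and the tetraspanin Cd53 (-0.82 ± 0.20, adjusted p = 0.047). None rose. Tyrobp, an adaptor of activating receptors, just missed with DES 1 µg (-1.05 ± 0.27, adjusted p = 0.052). The list's medians at 35 days were -0.49 with DES 100 µg and -0.42 with DES 1 µg. Those of all genes were 0.02 and -0.02. At that age 0.947% of all genes were called lower with DES 100 µg (1.4% either way) and 4.37% with DES 1 µg (7.74% either way). Summed over its measured members, the signal at 35 days was 256 to 279 in oil, 233 to 241 after DES 1 µg and 208 to 241 after DES 100 µg. At 49 days it was 238 to 242 in oil, 258 on both arrays after DES 1 µg and 245 to 265 after DES 100 µg. Cd163, Mrc1, Ms4a7, Ctss and Cx3cr1, all macrophage markers, had probes but were detected in no group. For DES 1 µg over oil at 49 days 2 of 13 rose, 1 fell and 10 did not pass. Of all genes 12.9% were called higher in that comparison and 33.2% either way, so the list did not stand out by count. Trem2, a lipid receptor of macrophages, rose (0.81 ± 0.16, adjusted p = 0.0084), as did Lyve1, a hyaluronan receptor not detected in every group compared (adjusted p = 0.014), and Tlr2, a toll-like receptor, fell (-0.58 ± 0.13, adjusted p = 0.013). For DES 100 µg over oil at 49 days 1 of 13 rose and 1 fell, Ccl6 (-0.57 ± 0.11, adjusted p = 0.0084). There 10.8% of all genes were called higher and 25.5% either way. DES 100 µg lay below DES 1 µg for Trem2 by -0.89 ± 0.16 at 49 days (adjusted p = 0.016) and by -0.86 ± 0.16 at 35 days (adjusted p = 0.015). Its signals at 49 days were 7.50 and 7.25 in oil, 12.8 and 13.0 after DES 1 µg and 6.24 and 7.79 after DES 100 µg. DES 1 µg at 49 days was the highest group for Trem2, as for Fcgr2b, both C1q chains and Colec12. It was also the highest group for the fibroblast marker Mgp (398 and 349) and the adipocyte marker Adipoq (34.0 and 31.1). The share of all genes with this order was not computed.

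Interferon-induced genes moved the same way as Fcgr3a and Fcgr1a at 35 days. Of 13 measured, 8 fell with DES 100 µg and 10 with DES 1 µg, and none rose. Of all genes 0.947% were called lower with DES 100 µg and 4.37% with DES 1 µg at that age. The medians of these interferon-induced genes were -1.27 and -1.38. Irf7, which drives interferon genes, read 56.8 and 51.0 in oil, 13.4 and 14.8 after DES 1 µg and 13.5 and 14.1 after DES 100 µg at 35 days. In oil at 49 days it was low too, at 13.0 and 13.4. With age in oil 9 of the 13 fell and 0 rose, against 14.1% of all genes called lower. For DES over oil at 49 days 6 of 12 fell with DES 1 µg and 5 of 13 with DES 100 µg, and 0 rose. Of all genes 33.2% and 25.5% passed either way there. The likeness did not extend to that age: Fcgr3a passed with neither dose, and Fcgr1a was called higher with DES 1 µg. At 35 days 2 of 8 measured T and NK cell markers fell with DES 100 µg, while 3 fell and 1 rose with DES 1 µg. Of 5 dendritic cell and antigen presentation markers 1 fell with DES 100 µg and 2 with DES 1 µg. The only measured marker of plasma cells, Jchain, fell with both doses (-1.60 with DES 100 µg and -1.22 with DES 1 µg). The part of these lists in the Fcgr3a result was not tested.

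Promoters are printed for Fcgr3a and Cybb, which share an element of the interferon-response type, and for C1qb, which lacks it. RefSeq promoters (GRCr8, 250 bases before to 50 after the gene start, written along the gene's strand) were found for 8 of the 10 genes, and Fcgr2b and C1qc had none in the table. Of these 8 only Fcgr3a and Cybb held the interferon-response type. The promoters of C1qa, Cd68, Csf1r, Lyz2 and Colec12, not printed, lacked it as C1qb did. Capitals mark matches to GAGGAA, the core of sites of the myeloid factor PU.1, to the interferon-response type (GAAA, 2 free bases, GAAA) and to TGANTCA, the AP-1 type, each searched on both strands.
Fcgr3a (chr13:85782386-85782685, + strand): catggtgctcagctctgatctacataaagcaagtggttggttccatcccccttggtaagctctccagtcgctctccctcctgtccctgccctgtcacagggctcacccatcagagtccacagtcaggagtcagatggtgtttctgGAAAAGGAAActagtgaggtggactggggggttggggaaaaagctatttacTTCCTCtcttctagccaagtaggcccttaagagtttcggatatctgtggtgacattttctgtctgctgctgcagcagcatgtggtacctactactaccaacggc
Cybb (chrX:16065016-16065315, - strand): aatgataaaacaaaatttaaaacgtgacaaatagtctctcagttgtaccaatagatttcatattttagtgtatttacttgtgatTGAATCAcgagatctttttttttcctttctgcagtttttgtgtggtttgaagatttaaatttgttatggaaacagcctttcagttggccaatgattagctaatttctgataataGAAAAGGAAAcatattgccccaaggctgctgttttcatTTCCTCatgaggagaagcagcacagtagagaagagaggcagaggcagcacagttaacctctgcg
C1qb (chr5:154407778-154408077, - strand): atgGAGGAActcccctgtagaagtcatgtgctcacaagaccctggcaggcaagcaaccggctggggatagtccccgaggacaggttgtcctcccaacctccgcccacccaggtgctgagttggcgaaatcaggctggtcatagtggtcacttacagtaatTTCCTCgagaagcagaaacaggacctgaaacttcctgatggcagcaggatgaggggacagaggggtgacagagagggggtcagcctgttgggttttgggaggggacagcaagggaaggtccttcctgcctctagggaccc
GAAAAGGAAA lies at -105 to -96 from the gene start in Fcgr3a and at -52 to -43 in Cybb, and 3.92% of 33469 promoters hold a match to this type. GAGGAA, on the opposite strand as TTCCTC, lies at -54 to -49 in Fcgr3a and at -14 to -9 in Cybb, and C1qb holds it at -247 to -242 and -90 to -85; 27.6% of promoters hold this motif. TGANTCA is held by 7.33%. The estrogen response element (GGTCA, 3 free bases, TGACC), held by 0.027% of promoters, had no match in these 3 windows. A STAT type (TTC, 3 free bases, GAA), held by 8.87% of promoters, was also searched and among the member genes matched only in C1qa. These are matches of letters, and no binding was measured.

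Genes whose levels ran most like those of the set were ranked by Pearson correlation of log2 signal, among 5108 named genes detected on all 12 arrays. For Fcgr3a the top 5 were Ly86, which partners a toll-like receptor relative (r = 0.91), Jchain, Fcgr1a, Tmem106a and Bcl2a1 (0.85 each). Without the oil arrays at 49 days they were Napsa (r = 0.94), Ifgga2l1, Ly86, Bcl2a1 and Coro1a, over 10 arrays. For C1qb the top 5 were Tbxas1, thromboxane synthase (r = 0.93), Arl11, Slc17a5, Ptafr and Olfm1. Tbxas1 led for C1qb over 10 arrays too (r = 0.95), and 4 of the 5 were in both lists. Within the set the highest coefficients over 12 arrays were those of Fcgr2b with C1qc (r = 0.80) and of Cybb with Colec12 (r = 0.80). Over the 10 arrays without oil at 49 days Fcgr2b with C1qc kept r = 0.81, and Cybb with Colec12 had r = 0.43. Fcgr3a ran closest to Lyz2, read by its brighter probe only (r = 0.72), and with Fcgr2b gave r = 0.24. Arrays of a group share treatment and age, so these coefficients are descriptions.

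**Figure D5:**
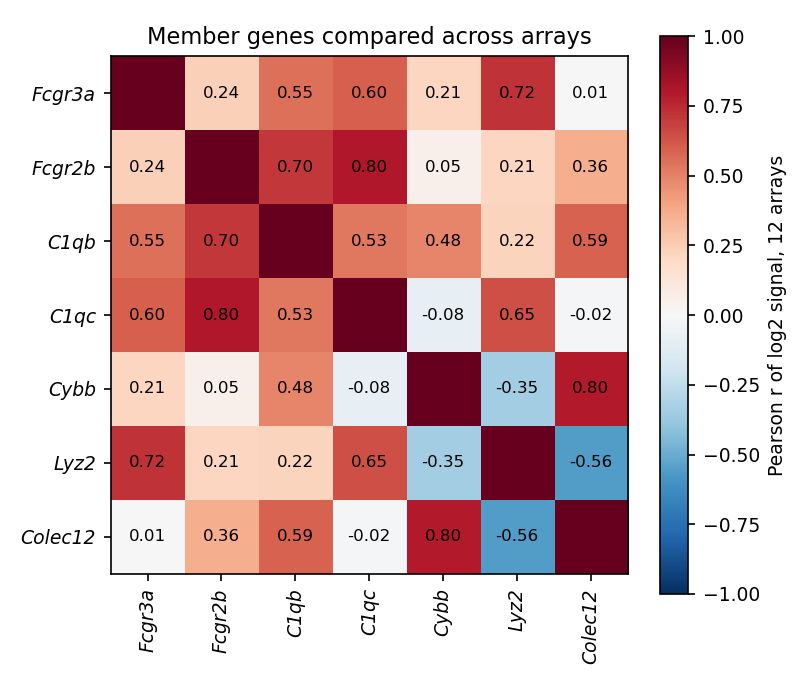
Pearson correlation of log2 signal over the array median between each pair of the 7 measured genes across the 12 arrays, in colour and printed in each cell. Fcgr2b with C1qc and Cybb with Colec12 are highest (0.80), and Lyz2, read by its brighter probe only, with Colec12 is lowest (-0.56). Without the oil arrays at 49 days Lyz2 with Colec12 is -0.28.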

How the data were processed

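Signals came from 12 Agilent 1-colour arrays. The deposited value table holds the authors' processed signal intensities from Agilent Feature Extraction 9.1.3.1 (per the submitters' processing notes), background-subtracted and not scaled between arrays. For 10 arrays it matched the scanner output to 0.499%, and for oil at 49 days no scanner output was used. Detection flags (P, M or A) came from the authors' deposited normalized table, whose values are a ratio to the array median and then to a baseline. Fold tables deposited by the authors list probes 2-fold or more apart, with no test. Genome build: not given in the sources used here.

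Each intensity was divided by its array's median over 20500 probes, floored at 0.01 and taken to log2. The RefSeq gene table named 6587 probes through an accession, 2419 through a symbol, 685 through an older symbol and 2155 through a gene ID, 1 (Csf1r) was named by its description, and 8653 stayed unnamed. Probe sequences were not examined, so signal from related genes such as other Fc receptors was not tested. All 12 arrays entered 1 limma fit (limma 3.58.1, R 4.3.3) of 6 group means with 6 residual degrees of freedom. Benjamini-Hochberg adjustment ran over all genes detected in a group compared, with a threshold of 0.05. The fit was tested on simulated data. With n = 2 arrays a group, the number of arrays limits the precision. Per the labels' protocols each array is 1 animal, and samples were grouped by their titles.

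The 10 genes and the gene lists were chosen with earlier results of these data known. All 10 genes are named whatever their values, and up to 3 genes of each list by smallest p; further genes and the dimmer Lyz2 probe were chosen after their values were seen. The labels do not pair same-numbered replicates, and 7 of 15 pairs of groups had deviations that correlated above 0.1. These correlations ran from -0.2 to 0.725, and the main fit held no replicate block. Alternatives were other scalings, detection filters, floors, probe choices, blocks, background correction, fewer arrays and an array signal covariate. Background correction used median foreground signals in place of mean ones, which the files used here do not hold.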

Additional observations from a re-analysis of the deposited data

Results flagged for a closer look

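The DES effect differed between 49 and 35 days for 5 of the 7 measured genes with DES 1 µg and for 2 with DES 100 µg, by the interaction term of the fit. For Fcgr3a the change was 1.36 with DES 1 µg and 1.35 with DES 100 µg, and both held under all 18 alternatives that could be fitted. Scan day as a block, normexp and leaving out both oil arrays at 49 days could not be, since each lacks that oil group. For Cybb the change was 2.68 and 1.77, where oil at 49 days was not above background, so these are fitted values and not measured sizes. For DES 1 µg it was 1.73 for Colec12, 1.01 for C1qb and 0.48 for Fcgr2b. The Fcgr2b change was lost under 12 of 18 alternatives, that of Colec12 under 8 and that of C1qb under 7, while the DES 100 µg change of Cybb was lost under 9 of 17. Each of these terms uses the 2 oil arrays at 49 days that stood apart from the other 10, and their part in it was not tested. With 2 arrays a group no array could be judged an outlier within its group.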

How the results depend on the processing

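Counts below are genes called among all tested, and members called among the 7. Same-numbered replicates were not paired; with a replicate block members called were 3 and 2 for DES 1 µg and DES 100 µg over oil at 35 days, 1 for DES 100 µg over DES 1 µg at 35 days, and 2 for age after DES 1 µg, against 1, 1, 0 and 1 without it. Scan day as a fixed block gave 0 genes and 0 members in each comparison it could fit. Normexp gave 476 genes and 2 members for DES 1 µg and 67 genes for DES 100 µg over oil at 35 days, 576 genes between doses at 35 days, 0 members between doses at 49 days, and 162 and 253 genes and 0 members for age after DES 1 µg and DES 100 µg. Only the arrays compared gave 156 genes for DES 1 µg, and 5 genes and 0 members for DES 100 µg, over oil at 35 days. They gave 1219 genes and 0 members for DES 100 µg over oil at 49 days, 197 genes between doses at 35 days, 100 genes and 0 members between doses at 49 days, 8 and 27 genes and 0 members for age after DES 1 µg and DES 100 µg, and 3 and 1 members for the interactions of DES 1 µg and DES 100 µg with age. Array signal as a covariate gave 1677 genes and 2 members for DES 1 µg and 2 members for DES 100 µg over oil at 35 days, 2070 genes for DES 1 µg and 478 genes and 0 members for DES 100 µg over oil at 49 days, 1 member between doses at 35 days and 1861 genes and 2 members at 49 days, 1084 genes and 1 member for age in oil, 1907 genes and 4 members for age after DES 1 µg, and 1219 and 685 genes for the interactions. Under this covariate the 1 member called for age in oil was Lyz2 (-0.78, adjusted p = 0.049), with the other sign than in the main fit. Fcgr3a, Cybb and Colec12, the members called in the main fit, no longer passed there. Without the 2 oil arrays at 49 days 106 genes were called for DES 100 µg over oil at 35 days and 313 for age after DES 1 µg, and 0 members for age after DES 100 µg. Without a detection filter, and with detection in each group compared, 1 member was called for DES 100 µg over oil at 49 days and 1 in its interaction with age, which had 750 genes under the stricter filter. Between doses at 35 days Fcgr2b passed with no filter and with 3 other scalings. The mean of detected probes gave 2 members for each dose over oil at 35 days. In these the cause was not tested.

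Leaving out 1 array gave 357 to 703 genes for DES 1 µg and 50 to 64 for DES 100 µg over oil at 35 days, with 1 member each. It gave 1357 to 1946 genes and 3 members for DES 1 µg, and 1013 to 2384 genes and 0 to 2 members for DES 100 µg, over oil at 49 days. Between doses it gave 451 to 896 genes and 0 members at 35 days and 249 to 517 genes and 0 to 1 members at 49 days. For age it gave 2584 to 3504 genes and 2 to 3 members in oil, 114 to 283 and 0 to 1 after DES 1 µg, and 185 to 788 and 0 to 1 after DES 100 µg. The interactions had 792 to 2971 genes and 2 to 4 members with DES 1 µg, and 290 to 891 and 1 to 2 with DES 100 µg. The main counts of genes, in the same order, were 899, 163, 3589, 2847, 961, 826, 4782, 491, 719, 2481 and 1174.

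Lyz2 changed sign. Against -0.48 for DES 1 µg over oil at 49 days it was 0.15 with the mean of its probes, 0.013 with the signal covariate and 0.77 with the dimmer probe. Against -0.50 for DES 100 µg it was 0.11, 0.32 and 0.72. Against 0.05 for age in oil it was -0.10, -0.35 and -0.12 with the 75th percentile, quantile and detected-median scalings, -0.68 with the mean of probes, -0.78 with the covariate, -0.16 to 0.25 without 1 array, negative without oil replicate 1 at 35 days, and -1.40 with the dimmer probe. Colec12 for age in oil was 0.031 with the covariate. A further 39 member differences passed under no setting and were set aside after their values were seen: 47 of their 653 alternative values had the other sign, up to 0.746 in size.

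Under the 75th percentile, quantile and detected-median scalings the share of calls that were higher moved to 52.4%, 55.6% and 54.7% for DES 1 µg over oil at 49 days (39% by the median), 57.2%, 56.3% and 58.9% for DES 100 µg (42.1%), and 49.8%, 47.6% and 46.8% for age in oil (66.7%), where the median of all genes shifted by up to -0.171.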

Other observations

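The summed signal of the measured mast cell markers was highest after DES 1 µg at each age, but not every marker ran this way. With DES 1 µg 4 of 5 were called higher than oil at 49 days and 2 of 6 at 35 days. None was called lower at either age. Tpsab1 nevertheless read 19.268 and 19.477 in oil and 14.958 and 15.87 after DES 1 µg at 49 days, without overlap. The summed signal of the markers at 35 days was 30.7 to 31.5 in oil, 43.6 to 48.3 after DES 1 µg and 41.3 to 43.1 after DES 100 µg. Their summed signal at 49 days was 32.0 to 32.2 in oil, 60.1 to 63.9 after DES 1 µg and 22.9 to 29.2 after DES 100 µg. Of 12 measured lysosome and phagosome genes 3 rose and 2 fell with DES 1 µg over oil at 49 days, while 2 fell at 35 days. Of the neutrophil markers 3 of 12 were measured; 1 fell with DES 1 µg at each age, and 1 rose with DES 100 µg at 49 days. Among luminal epithelium markers 1 rose and 3 fell of 5 with DES 1 µg at 49 days, and among basal ones 2 of 5 fell. Of all genes 12.9% were called higher with DES 1 µg over oil at 49 days and 33.2% either way. At 35 days 7.74% passed either way with DES 1 µg. With DES 100 µg at 49 days 10.8% were called higher and 25.5% either way.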
